A study of Mus musculus with 6 samples.

Results

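Transcripts of 10 genes of the fibroblast growth factor (FGF) pathway were examined in mouse satellite cells, the stem cells that repair skeletal muscle. They are the receptor genes Fgfr1, Fgfr2, Fgfr3 and Fgfr4, the ligand genes Fgf1, Fgf2 and Fgf7, and the feedback inhibitor genes Spry2, Spry4 and Dusp6. They were picked by their GENCODE M21 symbols from the 55536 genes in the count files, and all 10 had enough counts to be tested. RNA-seq was performed on 3 control samples, whose genotype is Pax7CreErt2;Hira fl/+, and on 3 cKO samples, which are Pax7CreErt2;Hira fl/fl. All carried the C57BL/6J background and a Cre recombinase that the Pax7 gene drives, so that tamoxifen, given in the diet of the adult male mice, deletes floxed Hira in satellite cells. HIRA is a chaperone that deposits the histone variant H3.3. The labels call the controls WT, whereas by the study's methods they were heterozygous for the floxed allele and carried the same Cre. Muscles were injured, and satellite cells were sorted 5 days post-injury as cells positive for CD34 and ITGA7 and negative for CD45, TER119 and SCA1, a gate meant to remove leukocytes, red blood cells and SCA1+ mesenchymal cells. They were then kept for 48 h at low density in a high-serum medium to which FGF2 protein (basic FGF) had been added, in both groups.

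FGF ligands bind receptor tyrosine kinases together with heparan sulfate chains of the cell surface, and the receptors signal through the adaptors FRS2 and GRB2 to the RAS-ERK kinase cascade. ERK activity induces its own inhibitors, among them the Sprouty proteins, which block the cascade below the receptor, and DUSP6, a phosphatase that inactivates ERK. In muscle, FGF2 is known as a mitogen that keeps satellite cells dividing and delays their differentiation, and FGFR1 and FGFR4 are the receptors usually described in these cells.

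The total count on genes ranged from 47944477 to 63323577 per sample. Counts are given as CPM, the counts scaled to the total of the sample, and log2 fold changes are of cKO over control, with their standard errors (SE), from edgeR's quasi-likelihood test. A gene was called when its adjusted p (Benjamini-Hochberg over the 22404 genes tested) was under 0.05. The labels and methods do not say that each sample came from a separate mouse, so the p-values measure the spread between these samples, which may be technical. Hira itself was counted 375, 348 and 341 times in the controls and 161, 293 and 272 times in cKO samples, with a log2 fold change of -0.43 ± 0.12 (SE, adjusted p = 0.0237). The Hira values of the groups did not overlap in CPM, but the adjusted p was 0.104 without control replicate 1, and the log2 fold change shrank to -0.29 without cKO replicate 1. Another annotated gene, Gm28539, covers 44.7% of the Hira exon bases on the same strand. Bulk RNA-seq cannot tell a change in the number of cells of a type from a change in RNA per cell, and gene counts do not separate the receptor isoforms that differ in ligand binding.

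Of the 10 genes, 5 rose in cKO (Fgf7, Fgf2, Fgfr2, Spry4 and Dusp6), 2 fell (Fgfr4 and Fgfr3) and 3 were not called (Fgf1, Fgfr1 and Spry2). Over all genes tested, 15.8% were called, 9.38% as higher and 6.46% as lower in cKO. The median log2 fold change of the 10 genes was 0.39, beside -0.0011 over all genes tested. The CPM values of the groups did not overlap for 9 of the 10 genes, against 31.4% of all genes tested, and Fgfr1 was the gene whose groups overlapped. The number of genes that fell was 1 without control replicate 1, without control replicate 3 or without cKO replicate 2, since each of these ended the call of Fgfr3.

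**Figure D1:**
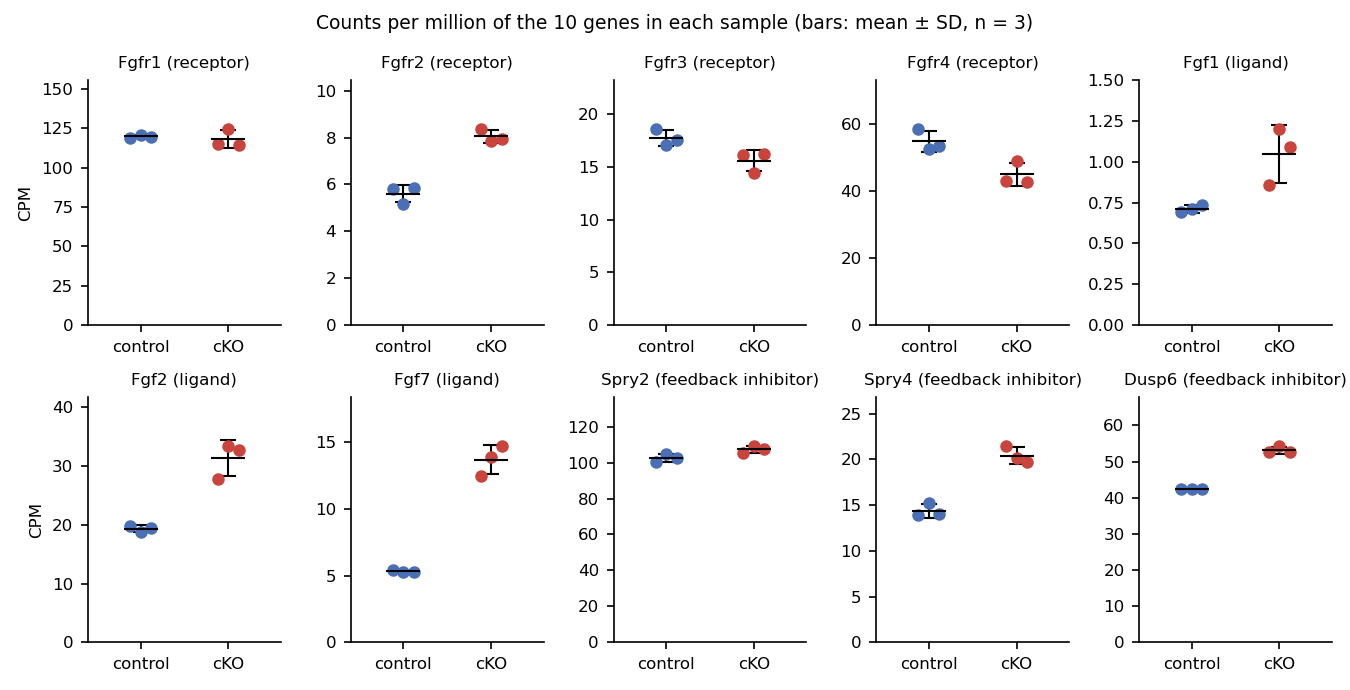
CPM of the 10 genes in the 3 control and 3 cKO samples, one panel per gene with its own axis from 0; points are samples, and bars give the mean and SD. Fgf7 lies at 5.27 to 5.39 CPM in control and 12.5 to 14.7 CPM in cKO, while the Fgfr1 points of the groups overlap.

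The upstream sequence of 4 of these genes is shown, without either gene that fell, so the range of responses is not spanned. Fgf7 rose most, Fgfr2 was the receptor that rose, Dusp6 rose with little spread among the samples, and Spry2 was not called. Each is the 250 bases before the RefSeq start site (build GRCm38.p6), written 5′ to 3′ on the strand of the gene, with E-boxes (CANNTG, the letters bound by basic helix-loop-helix factors such as MYOD1) in capitals. The windows are chr2:126034408-126034657 (+) for Fgf7, chr7:130266809-130267058 (-) for Fgfr2, chr10:99262981-99263230 (+) for Dusp6 and chr14:105896820-105897069 (-) for Spry2.
Fgf7: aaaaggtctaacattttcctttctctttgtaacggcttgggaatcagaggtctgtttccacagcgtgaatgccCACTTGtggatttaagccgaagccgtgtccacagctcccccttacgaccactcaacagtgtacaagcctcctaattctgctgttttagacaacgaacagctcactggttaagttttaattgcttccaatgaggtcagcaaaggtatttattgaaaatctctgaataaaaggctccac
Fgfr2: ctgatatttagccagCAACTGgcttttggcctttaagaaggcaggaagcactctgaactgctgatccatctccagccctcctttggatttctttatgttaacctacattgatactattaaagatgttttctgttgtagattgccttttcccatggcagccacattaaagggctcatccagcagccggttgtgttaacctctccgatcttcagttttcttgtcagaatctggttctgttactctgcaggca
Dusp6: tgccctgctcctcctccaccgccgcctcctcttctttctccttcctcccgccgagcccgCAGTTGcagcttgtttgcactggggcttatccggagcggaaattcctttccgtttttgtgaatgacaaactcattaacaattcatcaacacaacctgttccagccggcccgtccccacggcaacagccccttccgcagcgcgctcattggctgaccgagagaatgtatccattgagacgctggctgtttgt
Spry2: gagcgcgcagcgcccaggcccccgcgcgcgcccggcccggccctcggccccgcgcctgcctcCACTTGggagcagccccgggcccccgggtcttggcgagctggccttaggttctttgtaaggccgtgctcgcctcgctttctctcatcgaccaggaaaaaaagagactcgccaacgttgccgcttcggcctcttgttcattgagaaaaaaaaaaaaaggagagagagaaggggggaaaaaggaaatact
Each window held 1 E-box, which begins at position -177 from the start site in Fgf7, -235 in Fgfr2, -191 in Dusp6 and -188 in Spry2. An E-box occurred in 66.2% of 32851 windows of the same length, so its presence is usual. None of the 4 windows held the letters of an extended ETS site (CCGGAA), an AP-1 site (TGANTCA), a CRE (TGACGTCA), a GC box (GGGCGG) or a TATA box (TATAAA) on either strand, which 12.03%, 6.75%, 1.55%, 32.7% and 12.4% of all windows held. The shorter ETS core GGAA was not counted, and it does occur in printed windows, such as that of Dusp6. The windows differed in composition: GC content was 43.6% with 6 CpG in Fgf7, 44.0% with 2 in Fgfr2, 56.4% with 16 in Dusp6 and 62.4% with 23 in Spry2, beside medians of 52.4% and 6 over all windows. The windows of the genes that rose had a lower GC content than those of the genes that fell. The window of Fgf2, which also rose, was at 62.4%, and that of Fgfr4, which fell, at 64.0%. The windows of Fgfr3, which fell as well, were at 66.8% and 72.8%. Few genes are compared here, Spry4 had no window, and a link to direction was not tested. Among the windows not shown, those of Fgf2 and Fgfr4 overlap annotated exons, and the Fgfr3 window at 72.8% does not. The windows of Fgf2, Fgfr4 and Fgfr3 held GC boxes, and that of Fgfr4 also held the extended ETS site. These matches describe letters and not binding.

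Among the ligands, Fgf7, a growth factor that mesenchymal cells are known to release and that acts mainly on epithelial receptors, rose most. Fgf7 (ENSMUSG00000027208, mm10 chromosome 2, 126034658 to 126091185) had 5.39, 5.27 and 5.31 CPM in the controls and 12.5, 13.9 and 14.7 CPM in cKO, from 305 to 334 counts and 600 to 823 counts per sample. All cKO samples lay above all controls, and the controls were close to each other. The means were 5.33 ± 0.0612 and 13.7 ± 1.11 CPM (SD, n = 3 each), a 2.54-fold higher level (log2 fold change 1.34 ± 0.07 SE, adjusted p = 5.3e-09). No exon of another gene overlaps Fgf7, and it was called in every alternative fit run.

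Fgf2, the mitogen that was also present as protein in the medium, rose at the RNA level. In the C2C12 myoblast line, other cells than these, the study lists Fgf2 among the muscle genes that were lower without Hira, the opposite direction. Fgf2 (ENSMUSG00000037225, chromosome 3, 37348346 to 37410108) had 19.8, 18.7 and 19.5 CPM in control and 27.7, 33.3 and 32.7 CPM in cKO. The groups did not overlap, and cKO replicate 1 was the lowest of its group. The level was 1.59-fold higher (log2 fold change 0.67 ± 0.06 SE, adjusted p = 1.3e-06), and its log2 fold change stayed between 0.62 and 0.74 when each sample was left out in turn. The 3′ end of Fgf2 lies over the opposite-strand gene Nudt6, with 9.44% of the Fgf2 exon bases shared. Nudt6 had 46 to 83 counts per sample and was not called (log2 fold change -0.26, adjusted p = 0.413), and the strand setting of the counting is not given in the sources used here.

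Fgf1, a ligand that binds all the FGF receptors, was the scarcest of the 10 genes per length. Its counts (ENSMUSG00000036585, chromosome 18, 38838673 to 38929472) were 39, 45 and 45 in the control samples, beside 41, 71 and 61 in the cKO samples, that is 0.690, 0.711 and 0.733 against 0.855, 1.20 and 1.09 CPM. Every cKO sample was above every control, with cKO replicate 1 nearest to them. The log2 fold change was 0.55 ± 0.18 (SE) and was not called in edgeR's quasi-likelihood test (adjusted p = 0.0567). It was called without cKO replicate 1 (adjusted p = 0.0236), with the likelihood-ratio test (0.0235) and with scaling to total counts (0.0483), and not with DESeq2 (0.229).

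Other secreted FGF ligand genes were mostly scarce. Of the 15 listed besides Fgf1, Fgf2 and Fgf7, 7 could be tested and edgeR's quasi-likelihood test called 1 of these higher and none of the others, with a median log2 fold change of 0.01. The share called higher over all genes tested was 9.38%. The gene that rose was Fgf18, known for its action on bone and cartilage, whose counts were 16, 21 and 15 in the controls against 33, 48 and 37 (log2 fold change 1.30 ± 0.24 SE, adjusted p = 0.0013). Fgf21, an endocrine FGF, had 59.8 ± 1.59 CPM in control and 61.4 ± 4.56 in cKO (SD, n = 3 each), and was not called (log2 fold change 0.01). Fgf6, a ligand known from the muscle lineage, had 4.48 ± 0.271 and 4.57 ± 0.556 CPM (SD, n = 3 each) with a log2 fold change of 0.00. Fgf5 was at -0.31 with an adjusted p of 0.0599 in that test, and was called lower with the likelihood-ratio test (0.0295), with no low-count filter (0.0216) and with the replicate block (0.0385), and not with DESeq2 (0.143). Fgf3, Fgf8, Fgf15 and Fgf20 had at most 3 counts in any sample. Of 4 genes for the intracellular FGF homologous factors, which are not secreted, 2 were tested, and edgeR called 0 of them. Their log2 fold changes were -0.03 for Fgf11 and -0.12 for Fgf13, and 0 had an unadjusted p under 0.05 or was called by DESeq2 or the likelihood-ratio test.

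The receptors moved in different directions. Fgfr4, a receptor known from myogenic cells, fell. Fgfr4 (ENSMUSG00000005320, chromosome 13, 55152640 to 55168759) had 58.4, 52.5 and 53.2 CPM in control and 43.0, 48.9 and 42.7 CPM in cKO. The groups did not overlap, with control replicate 1 the highest sample and cKO replicate 2 the highest of its group. The log2 fold change was -0.31 ± 0.05 (SE, adjusted p = 0.000634), and between -0.37 and -0.26 with each sample left out. The study also reports lower Fgfr4 by RT-qPCR in cKO satellite cells, and a loss of H3.3 at a regulatory region of the gene.

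Fgfr1, the other receptor usually named in satellite cells, was not called. Fgfr1 (ENSMUSG00000031565, chromosome 8, 25513654 to 25575718) had 119.1, 120.6 and 119.7 CPM in control and 115.3, 124.5 and 114.1 CPM in cKO. The controls fell inside the range of the cKO samples. Its log2 fold change was -0.05 ± 0.03 (SE, adjusted p = 0.434).

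Fgfr3, a receptor best known from cartilage, fell by less than Fgfr4, and its call was not stable. Fgfr3 (ENSMUSG00000054252, chromosome 5, 33721674 to 33737068) had 18.6, 17.1 and 17.6 CPM in control and 16.1, 14.4 and 16.2 CPM in cKO. The groups did not overlap, though control replicate 2 lay close to cKO replicates 1 and 3. The log2 fold change was -0.21 ± 0.06 (SE, adjusted p = 0.0223). The adjusted p was 0.10 without control replicate 1, 0.0627 without control replicate 3 and 0.0810 without cKO replicate 2. An opposite-strand gene, G630022F23Rik, shares 13.9% of the Fgfr3 exon bases and had 14 to 30 counts per sample.

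Fgfr2, a receptor known mainly from epithelia, was the receptor that rose, from a low level. Fgfr2 (ENSMUSG00000030849, chromosome 7, 130162451 to 133123350) had 5.80, 5.18 and 5.86 CPM in control and 8.36, 7.84 and 7.95 CPM in cKO, from 328 to 464 counts per sample. The groups were well apart relative to their spread, with means of 5.61 ± 0.378 and 8.05 ± 0.274 CPM (SD, n = 3 each). The log2 fold change was 0.50 ± 0.07 (SE, adjusted p = 0.00021). Ctbp2, which shares 3.04% of the Fgfr2 exon bases on the same strand, was at -0.01.

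Levels were compared between receptors as RPKM, here the CPM per kilobase of all annotated exons of a gene. Summed over the 4 receptors, it was 30.6 ± 0.959 in control and 27.6 ± 1.40 in cKO (SD, n = 3 each, exact two-sided permutation p = 0.1, the smallest that 3 samples against 3 can give). Fgfr4 made up 52.0%, 49.5% and 49.8% of the sum in control and 45.2%, 47.3% and 45.2% in cKO, 4.55 percentage points less. The share of Fgfr1 was 38.1%, 40.8% and 40.2% in control and 43.4%, 43.2% and 43.4% in cKO, 3.65 points more. Neither share overlapped between the groups. Fgfr2 went from 1.77%, 1.68% and 1.88% to 3.01%, 2.60% and 2.89%, a gain of 1.06 points. The exact permutation p was 0.1 for each of these 3 shares. Fgfr3 held 8.20%, 7.98% and 8.13% in control and 8.39%, 6.91% and 8.51% in cKO, with overlapping groups (exact permutation p = 1), and its difference of -0.17 points became 0.35 without cKO replicate 2. With the length of the longest transcript instead, Fgfr1 and not Fgfr4 was the larger share in control, at 52.1% against 36.0%, and the direction of each of the 4 differences was kept. The ratio of Fgfr4 to Fgfr2 counts, which needs no length, was 10.1, 10.1 and 9.08 in control and 5.14, 6.23 and 5.36 in cKO (exact permutation p = 0.1), so the groups were far apart.

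**Figure D2:**
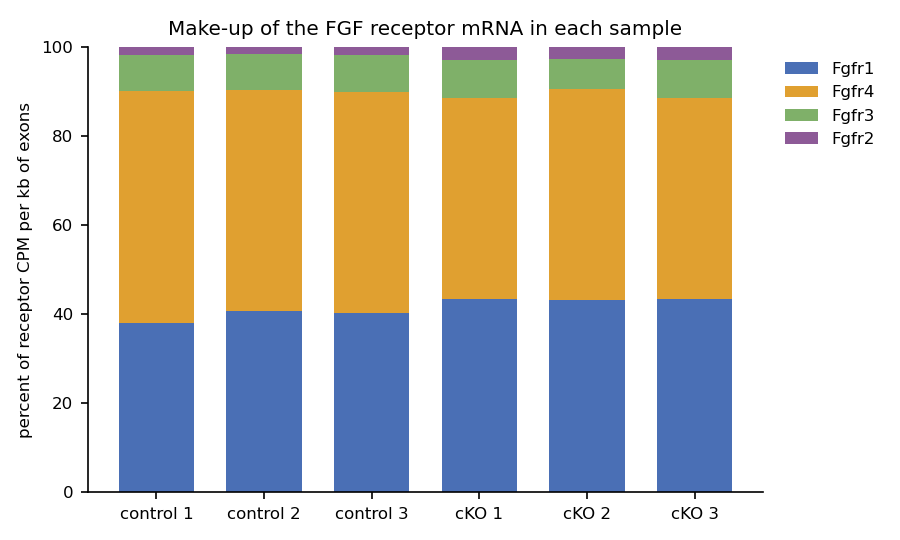
Share of each receptor gene in the summed CPM per kilobase of exons of the 4 FGF receptors, in percent, for each of the 3 control and 3 cKO samples. Fgfr4 takes 49.5% to 52.0% of each control bar and 45.2% to 47.3% of each cKO bar, and Fgfr2, at the top, stays under 3.1%.

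Among the co-receptors and other proteins that bind FGF receptors, 5 of 7 genes could be tested, of which 1 rose and the others were not called. Over all genes tested, 9.38% were called higher and 6.46% lower. Flrt3, a membrane protein known to bind FGF receptors, was counted 95, 114 and 106 times in control samples and 122, 169 and 125 times in cKO samples (log2 fold change 0.53 ± 0.12 SE, adjusted p = 0.0074). Fgfrl1, a receptor that lacks the kinase domain, was at 0.02 and not called. Genes for heparan sulfate proteoglycans, their modifying enzymes and FGF-binding proteins moved both ways: of 21 tested of 22, 5 rose and 4 fell, with a median of 0.06. Sulf1 and Sulf2, which encode extracellular enzymes that remove sulfate groups from heparan sulfate, rose by log2 fold changes of 0.51 (adjusted p = 1.6e-06) and 0.30 (adjusted p = 6.6e-05) in edgeR's test. Sulf1 went from 68.0 ± 1.57 to 98.2 ± 8.13 CPM (SD, n = 3 each). The glypican genes Gpc3 and Gpc2, for proteoglycans anchored to the cell membrane, rose by 0.68 (adjusted p = 0.0039) and 0.37 (adjusted p = 0.0028). Both were scarce, at means of 1.05 and 5.69 CPM in control. Gpc1, at means of 549.4 CPM in control and 495.7 in cKO, fell by 0.17 on the log2 scale (adjusted p = 0.0082). Gpc4 and Gpc6 were not called. Hs6st1, for an enzyme that adds sulfate to heparan sulfate chains, fell by 0.21 on the log2 scale (adjusted p = 0.00026). The other called genes of this list were Ndst1, at 0.11, Sdc1, at -0.13, and Sdc3, at -0.19.

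The feedback inhibitors differed among themselves. Dusp6, the ERK phosphatase, rose. Dusp6 (ENSMUSG00000019960, chromosome 10, 99263231 to 99267489) had 42.4, 42.4 and 42.4 CPM in control and 52.6, 54.2 and 52.6 CPM in cKO. The spread within each group was small beside the gap between them. The level was 1.23-fold higher (log2 fold change 0.30 ± 0.03 SE, adjusted p = 1.6e-05), and the log2 fold change stayed between 0.29 and 0.31 with each sample left out.

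Spry4 rose and Spry2 was not called. Spry4 (ENSMUSG00000024427, chromosome 18, 38586247 to 38601415) had 13.9, 15.3 and 14.0 CPM in control and 21.4, 20.1 and 19.7 CPM in cKO. Every cKO sample was above every control, a 1.39-fold higher level (log2 fold change 0.48 ± 0.05 SE, adjusted p = 1.7e-05). Spry2 (ENSMUSG00000022114, chromosome 14, 105891947 to 105896819) had 100.1, 104.7 and 102.7 CPM in control and 105.4, 109.0 and 107.5 CPM in cKO. These groups were close but did not overlap, and the log2 fold change after TMM scaling was 0.04 ± 0.03 (SE, adjusted p = 0.441). The ratio of Spry4 to Spry2 counts was 0.139, 0.146 and 0.136 in control and 0.203, 0.185 and 0.183 in cKO (exact permutation p = 0.1). Spry2 had the higher count in all 6 samples, and Spry4 was closer to it in cKO.

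Of 13 further feedback inhibitor genes 12 were tested, 4 rose and 1 fell, with a median log2 fold change of 0.06. Of all genes tested, 9.38% were called higher and 6.46% lower. Dusp5, for a nuclear ERK phosphatase, went from 26.4 ± 1.49 to 37.0 ± 1.59 CPM (SD, n = 3 each, log2 fold change 0.46 ± 0.05 SE, adjusted p = 6.2e-06). Spred3, of the Sprouty-related family, rose by 0.48 (adjusted p = 0.00016), and Spred2 of the same family fell by 0.23 on the log2 scale (adjusted p = 0.0122). The Spred2 call was lost when control replicate 1 (adjusted p = 0.0588) or 3 (0.0505) was left out. Spry1, the Sprouty gene linked to satellite cell quiescence, had 30.8 ± 1.39 and 31.8 ± 1.45 CPM (SD, n = 3 each) and was not called (log2 fold change 0.02, adjusted p = 0.814). Spry3, which GENCODE M21 places on the scaffold GL456233.1, had 0 counts in all 6 samples. By sampling alone this allows up to 3 counts in each, and whether reads could be assigned on that scaffold was not tested.

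Below the receptors, 2 of 22 adaptor and kinase genes and 9 of 13 ERK-responsive genes were called, beside 15.8% of all genes tested. All 22 adaptor and kinase genes were tested by edgeR, 0 rose and 2 fell, with a median of 0.0041. At an unadjusted p under 0.05, 1 was higher and 4 lower, DESeq2 called 0 higher and 2 lower, and the likelihood-ratio test called 1 higher and 3 lower. These were the adaptors Grb2, at -0.20 (adjusted p = 0.0102), and Frs2, at -0.18 (adjusted p = 0.0117), which lost their calls without control replicate 1 (adjusted p = 0.0561) and without control replicate 2 (0.0643). Of 13 ERK-responsive genes 9 rose and the others were not called, with a median of 0.22. Ier3, an immediate early gene, went from 15.9 ± 0.814 to 26.7 ± 0.868 CPM (SD, n = 3 each, log2 fold change 0.72 ± 0.05 SE, adjusted p = 1e-07). Etv4, an ETS factor that FGF signalling induces, went from 16.4 ± 0.164 to 22.1 ± 1.04 CPM (SD, n = 3 each, log2 fold change 0.41 ± 0.05 SE, adjusted p = 2.1e-05). Etv5, a factor of the same group, had 22.4 ± 1.16 and 22.2 ± 0.626 CPM (SD, n = 3 each) and was not called, at -0.04. Myc rose by 0.26 (adjusted p = 0.0012). Fosl1, at 0.32 (adjusted p = 0.0105), lost its call without control replicate 3 (0.0681). Phlda1, at 0.26 as well (adjusted p = 0.0307), kept its call in 1 of the 6 fits that left out a sample, the one without cKO replicate 1. Many of these genes respond to ERK from any receptor, and serum was present in both groups.

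Over the 96 pathway genes besides the 10, 82 were tested, 20 rose and 7 fell, beside the 9.38% and 6.46% of all genes tested, and the median log2 fold change was 0.03. The number that rose was 13 without control replicate 3, and the number that fell was 4 without control replicate 2. These lists were assembled with results of these data known, so the counts describe the genes listed.

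**Figure D3:**
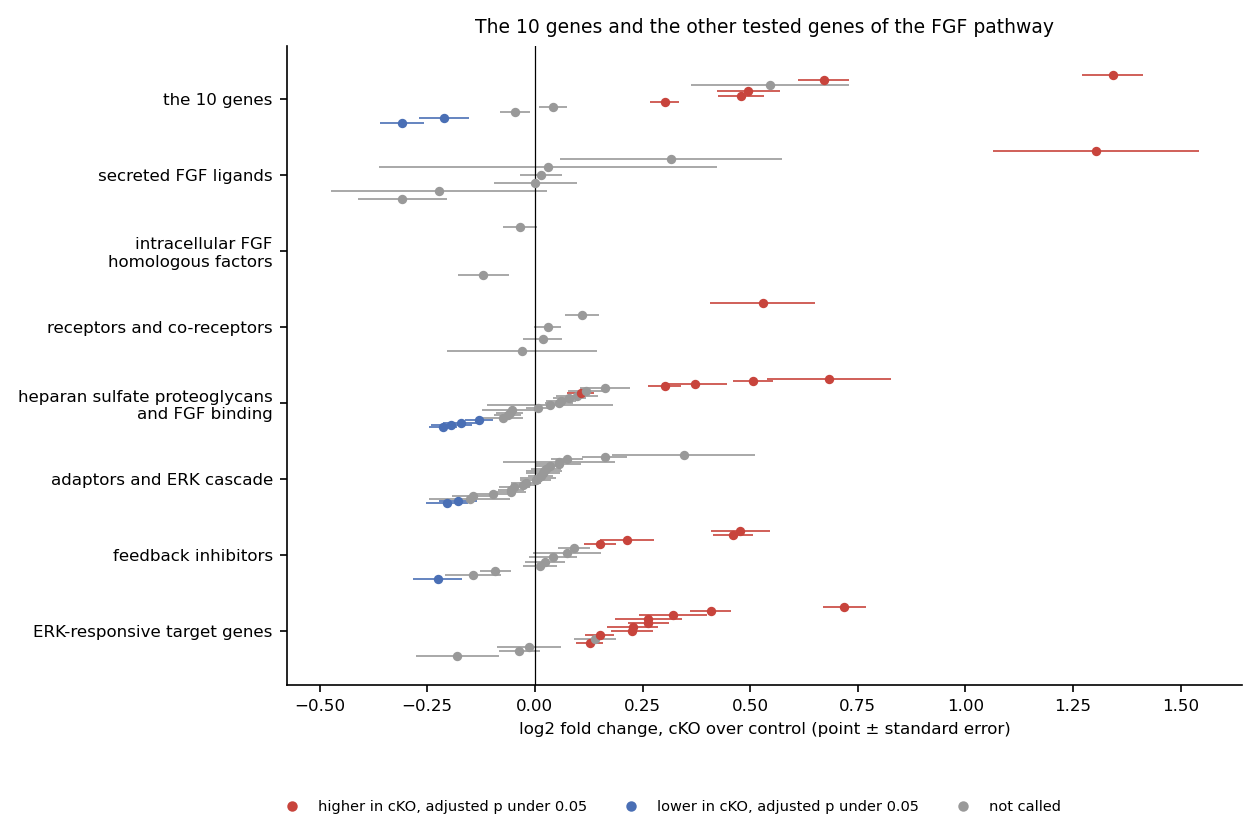
Log2 fold change of cKO over control for the 10 genes (top row) and for the other tested genes of 7 lists of the FGF pathway, each point a gene with its standard error, red if called higher, blue if called lower and grey if not called. Of the 13 ERK-responsive genes 9 are red, while of the 22 adaptor and cascade genes 20 are grey.

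Per kilobase of exons, the 10 genes covered a wide range of levels. In control the order was Spry2 (49.1 ± 1.12 RPKM, SD, n = 3), Fgfr4 (15.4 ± 0.900), Dusp6 (13.5 ± 0.0126), Fgfr1 (12.1 ± 0.0782), Spry4 (3.02 ± 0.164), Fgf2 (2.85 ± 0.0810), Fgfr3 (2.48 ± 0.108), Fgf7 (1.64 ± 0.0188), Fgfr2 (0.544 ± 0.0366) and Fgf1 (0.130 ± 0.00396). Spry4 and Fgf2 overlapped, and the other neighbours in this order did not. The order depends on the length used. With the longest transcript, Fgfr1 (23.8) lay above Fgfr4 (16.5) and Dusp6 (15.2) in control, and 5 of the 10 genes kept their place. In cKO, Spry2 (51.4 ± 0.863) was followed by Dusp6 (17.0 ± 0.303), Fgfr4 (12.7 ± 0.984), Fgfr1 (11.9 ± 0.576), Fgf2 (4.61 ± 0.450), Spry4 (4.29 ± 0.190), Fgf7 (4.22 ± 0.342), Fgfr3 (2.18 ± 0.141), Fgfr2 (0.780 ± 0.0265) and Fgf1 (0.192 ± 0.0323). There Fgfr4 overlapped with Fgfr1, Fgf2 with Spry4, and Spry4 with Fgf7. Fgf7 thus passed from below Fgfr3 to above it, and Dusp6 passed above Fgfr4.

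**Figure D4:**
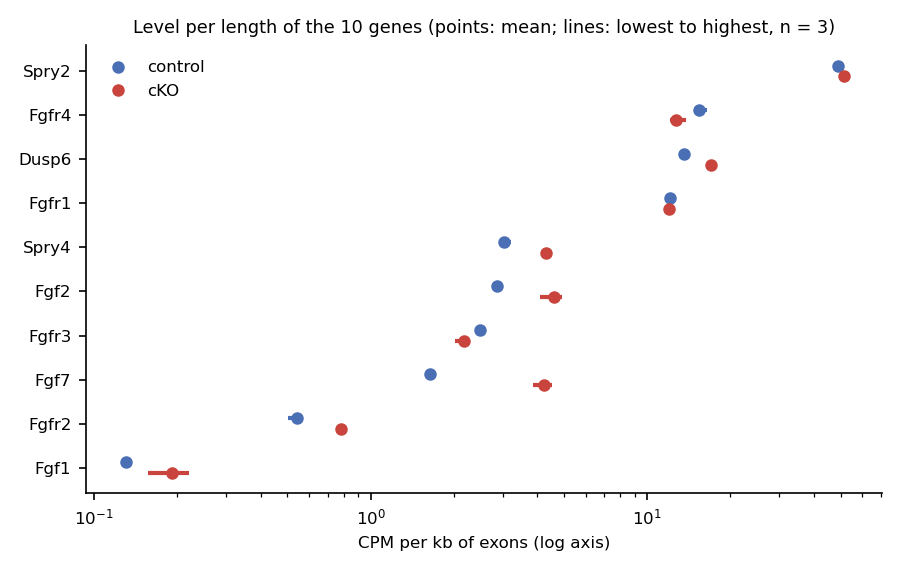
CPM per kilobase of exons (log axis) of the 10 genes, with points for the mean of the 3 control (blue) and 3 cKO (red) samples and lines from the lowest to the highest sample. Fgf7 moves from 1.64 to 4.22, past Fgfr3, which moves from 2.48 to 2.18.

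The genes whose log2 CPM followed each called gene most closely over the 6 samples were taken from 15213 genes with a mean of at least 100 counts. These correlations are a description, since the 6 samples are the same ones, fall into 2 groups and share their depth. For Fgf7 they were Brinp1, Ptx3 and Zfp219 (Pearson r 0.998 each), and 930 genes had an r over 0.95. For Fgf2 they were Gm9845, Zic1 and Klf2 (0.998 to 0.9995, 857 genes over 0.95), for Dusp6 Ltbp2, Cyba and Cryzl1 (0.9997 to 0.9999, 1071 genes), and for Spry4 Ptp4a3, Plin3 and Fam129b (0.996 to 0.997, 707 genes). For Fgfr2 they were Plek, Snx5 and Rabl3 (0.996 to 0.997, 550 genes). The genes that fell had fewer close companions: 131 genes passed 0.95 for Fgfr4, led by Upp1, Pdpk1 and Gm38057 (0.993 to 0.995), and 100 for Fgfr3, led by Chac2, Gm12988 and Trap1 (0.988 to 0.996).

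Markers of other cell types differed between the groups along with the FGF genes, although the sort selected against CD45+ and SCA1+ cells. Ptprc, which encodes CD45, was called at 0.96 (adjusted p = 5.2e-05), and Ly6a, which encodes SCA1, was at 0.24 and not called (adjusted p = 0.115). For the markers the sort selected for, Cd34 was at 0.49 (adjusted p = 0.0065) and Itga7 at -0.12 (adjusted p = 0.0271). The samples carried the defining genes of their label, with Pax7 at 39.3 ± 0.748 CPM in control and 35.1 ± 2.08 in cKO (SD, n = 3 each) and Myod1 at 772.9 ± 13.8 and 704.5 ± 23.8. Myog, another of the myoblast markers, was far above Pax7, at 2111.9 ± 15.8 CPM in control and 1875.5 ± 67.1 in cKO. Of 12 satellite cell and myoblast markers, 9 fell and 1 rose, with a median log2 fold change of -0.16, and their summed level was 10378 to 10440 CPM in control and 9241 to 9778 in cKO. Fgfr4 at -0.31 and Fgfr3 at -0.21 thus moved in the direction of that list. Of 12 fibroblast markers 9 were tested and 6 of these rose, with a median of 0.42, and the sum was 1117 to 1193 CPM against 1532 to 1711. Without the 3 collagen genes it was 61.4 to 66.8 against 115 to 136 CPM, and the fibroblast marker Tcf21 was at 3 counts or fewer. All 12 macrophage markers rose, with a median of 1.06 and sums of 122 to 128 against 261 to 306 CPM. For smooth muscle and pericyte markers, 8 of 9 tested rose and 1 fell (median 0.30, sums of 3263 to 3321 against 3575 to 3730 CPM, Kcnj8 at 3 counts or fewer). Acta2 made up most of these sums, at 2929.3 ± 29.9 CPM in control and 3180.3 ± 50.0 in cKO (SD, n = 3 each), with a log2 fold change of 0.09. For endothelial markers, 5 of 12 rose and the others were not called (median 0.35, 23.4 to 25.3 against 33.8 to 40.7 CPM). For glial markers, 1 of 5 tested rose and the others were not called (median 0.34, 27.9 to 29.9 against 37.2 to 42.6 CPM). Beside these lists, 9.38% of all genes tested were called higher and 6.46% lower, and 1 call among 5 genes cannot be told from such a share.

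**Figure D5:**
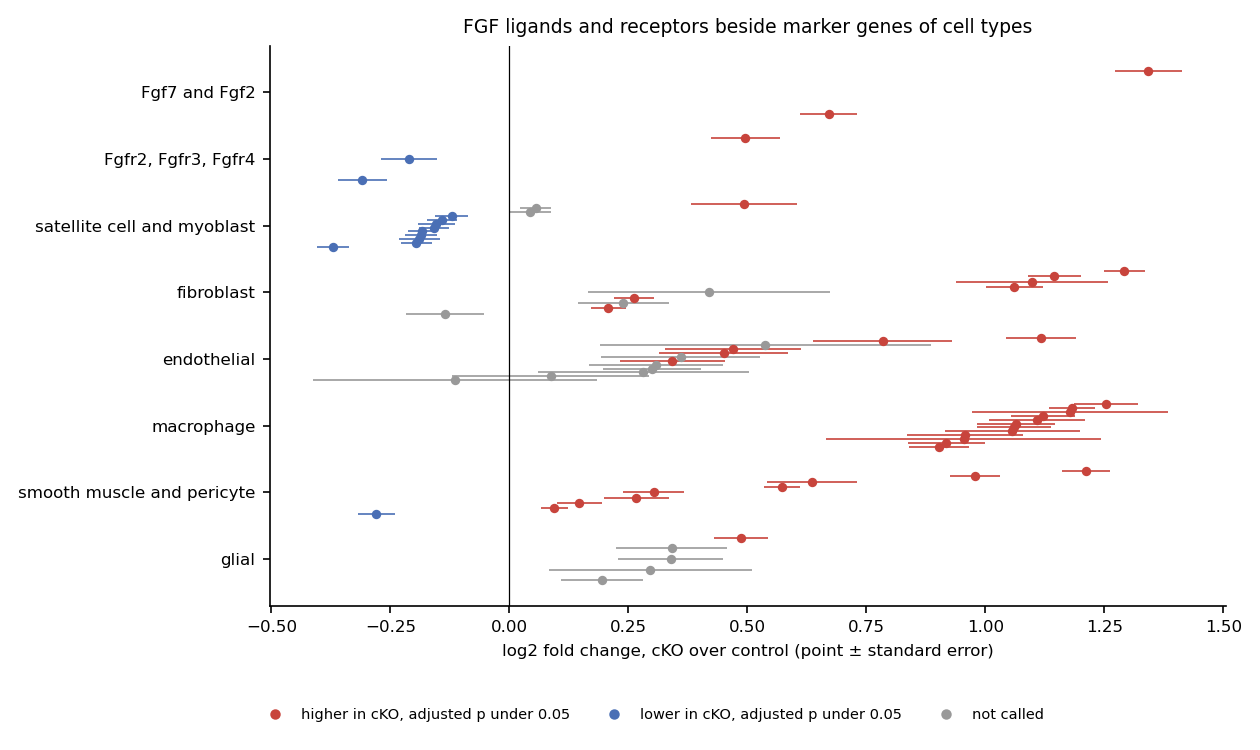
Log2 fold change of cKO over control with standard errors for the called ligands and receptors (top) and for the tested markers of 6 cell types, red if called higher, blue if called lower and grey if not called. Fgf7 lies at 1.34, the fibroblast markers spread from -0.14 (Cd55) to 1.29 (Col1a1), and all 12 macrophage markers are red.

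Fgf7 was set against the 9 tested fibroblast markers within each sample. Relative to 7 of them its count ratio was higher in every cKO sample than in every control, and relative to Col1a1 and Dcn the groups overlapped. Fgf7 had a larger log2 fold change than each of the 9, so a higher mean ratio in cKO follows from that. The count of 7 is therefore no separate test. The ratio of Fgf7 to Col1a1 counts was 0.0454, 0.0437 and 0.0445 in control and 0.0446, 0.0428 and 0.0511 in cKO, with overlapping groups (exact permutation p = 0.8). Relative to Pdgfra counts, Fgf7 was at 0.223, 0.230 and 0.246 in control and 0.247, 0.248 and 0.309 in cKO (exact permutation p = 0.1), narrowly without overlap. Relative to Cd55 it was at 0.740, 0.731 and 0.712 in control and 1.79, 1.86 and 2.50 in cKO (exact permutation p = 0.1), far apart. The ratio of Fgf2 to Pdgfra counts was lower in cKO, at 0.548, 0.594 and 0.687 against 0.818, 0.818 and 0.904 (exact permutation p = 0.1). Beside them, the log2 fold changes were 1.34 for Fgf7, 1.29 for Col1a1, 1.15 for Pdgfra, 1.10 for Dcn, 0.67 for Fgf2, 0.26 for Col1a2, 0.21 for Col3a1 and -0.14 for Cd55. The part of other cell types in the changes of the FGF genes, in cells sorted without CD45 and SCA1, was not tested.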

How the data were processed

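Per the submitters' processing notes, the authors used Bowtie2 2.3.4.2, featureCounts 1.6.3 and the mm10 build. The deposited files hold raw counts per gene as the authors made them, from stranded single-end libraries of 75 bp made from 400 ng of total RNA after removal of ribosomal RNA. The strand setting, the annotation and the handling of reads that match several genes are not given in the sources used here. An aligner of this kind does not split reads over introns, so reads over exon junctions can be lost. Tables of normalised counts and of the authors' own comparison (a mean, a log2 fold change, its error and p-values, made with DESeq2 2.11.40.6) were not used.

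All 55536 identifiers matched GENCODE M21, which gave symbols, coordinates and exon lengths. Genes were filtered with filterByExpr, scaled by TMM and compared by the quasi-likelihood test of edgeR 4.0.16 (limma 3.58.1, R 4.3.3), with genotype as the only term, 3 samples per group and Benjamini-Hochberg adjustment over 22404 genes. The standard error is the absolute log2 fold change divided by the square root of the F statistic. CPM used total counts, and correlations used log2 CPM with a prior count of 2. Shares and ratios were compared by exact permutation tests (scipy 1.17.1). Replicates had a common coefficient of variation of 3.92%. Libraries of a group differed by more than sampling noise (chi-square per gene 2.03 to 9.39), so none was counted as a duplicate. The test was first tried on simulated counts with known changes.

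Alternatives were DESeq2 1.42.0, the likelihood-ratio test, other scalings and filters, a replicate block, a threshold of 0.01, leaving out each sample and another gene length. The 10 genes, the lists of pathway genes and markers and these tests were chosen with earlier results of these data known. Named genes are the 10, Hira, the 5 called genes with the largest absolute log2 fold change in each pathway list and, for each called gene of the 10, the 3 genes that correlated best with it. Genes not called, Gpc1, Ndst1, Sdc1, Sdc3, the overlapping genes and the markers were named after their values were seen. Promoter windows came from RefSeq (GRCm38.p6), which held entries for Fgfr2, Fgfr3, Fgfr4, Fgf2, Fgf7, Spry2 and Dusp6. Windows over annotated exons were not printed. Summaries were made in Python 3.11.15 (pandas 2.3.3, numpy 2.4.6) and plotted with matplotlib 3.10.9.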

Additional observations from a re-analysis of the deposited data

How the results depend on the processing

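Of 130 values, the log2 fold changes of the 10 genes under 13 alternatives, 124 kept their direction and their side of the threshold and 0 reversed. The exceptions were Fgfr3 and Fgf1, given above. At an adjusted p under 0.01, 1 of the 10 genes was called lower, 17 pathway genes were called, 3 of them lower, and 2139 of all genes, 732 of them lower. With no low-count filter, 11 pathway genes were called lower. Leaving out each sample in turn gave 1 to 2 of the 10 genes lower, 13 to 24 pathway genes higher, 4 to 10 lower, and 917 to 1673 of all genes lower, with 917, 934 and 960 without control replicates 1, 2 and 3. Hira then ranged from -0.52 to -0.29, and it was at -0.34 and no longer called without control replicate 1. The difference in the Fgfr3 share ranged from -0.45 to 0.35 percentage points and reversed to 0.35 without cKO replicate 2. With the longest transcript as length, the gain of the Fgfr2 share was 1.52 points and 4 of the 10 genes kept their place in the order of mean levels over the 6 samples (5 in the order within control and 5 in that within cKO). Apart from the samples, threshold, filter or length that each setting changes, the cause was not tested.

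No pairing by replicate number was detected: deviations from the group means of same-numbered samples correlated at -0.013, -0.0045 and -0.015 across genes. Those of differently numbered samples correlated at -0.0074 to 0.020. A correlation over all genes cannot show a pairing that affects few genes. With the replicate number as a block, 7 of the 10 genes (5 higher, 2 lower), 29 pathway genes (20 higher, 9 lower) and 3152 of all genes (1901 higher, 1251 lower) were called. The block changed no call among the 10 genes, and Hira had an adjusted p of 0.0465.

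Fgf1 had the lowest counts of the 10 genes, 39 to 71 per sample.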
